A study of Mus musculus with 6 samples.

Results

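Potassium channel genes of mouse cerebellar granule neurons (CGNs) were described in 6 RNA-seq libraries, as all genes whose symbol is Kcn followed by letters and a number. This pattern took 92 of the 55341 gene symbols in the count tables, and 66 of the 92 had 10 or more counts in at least 3 libraries. The cultures were made, per the methods of the study, from granule neuron progenitors of CD1-IGS mice dissected at P6-P8, purified on a Percoll gradient and given AraC at DIV2, an agent against dividing non-neuronal cells. Both groups carried these steps: 3 libraries came from cultures given DMSO, the vehicle, and 3 from cultures given GSK-126, a small molecule inhibitor of EZH2. EZH2 is the methyltransferase of Polycomb repressive complex PRC2 that writes H3K27me3, a histone mark of silent genes. The labels place both agents at DIV3 and name cerebellum as the source, and the methods add that cultures given inhibitor once at DIV3 were processed at DIV5. No dose is stated for the addition at DIV3. A replicate was CGNs of pooled litters, and replicates are numbered 1 to 3 in both groups.

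Potassium channels let potassium leave the cell, which sets the resting potential and ends each action potential. The genes fall into voltage-gated pores, pores opened by internal calcium or sodium, inward rectifiers, two-pore-domain leak channels, and auxiliary subunits that set where and how fast the pores act. Granule neurons are known for a standing leak current carried by TASK-type channels and for A-type currents carried by Kv4 channels.

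Of the 66 genes described, 27 encode voltage-gated pores, 7 calcium- or sodium-activated pores, 12 inward rectifiers, 9 two-pore-domain pores and 11 auxiliary subunits. Of the 26 that were not described, 3 had no count in any library, namely Kcna10, Kcne3 and Kcnk16, where 3 counts, the limit that a count of 0 allows, would be between 0.229 and 0.405 CPM (counts relative to the total on genes of the library, here with no further scaling). Among those 26 was Kcnmb1, the beta subunit of smooth muscle BK channels, with 4, 5 and 24 counts with DMSO and 2, 6 and 8 with GSK-126. The filter for testing left 64 of the 66, without Kcnj8 and Kcng2, and 24 of the 66 overlap exons of a gene on the other strand, where reads of the 2 genes cannot be told apart because the strand setting of the counting is not stated.

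Each library had between 7407189 and 13092763 counts on genes, and potassium channel genes took between 0.204% and 0.435% of them. Replicate 2 stood apart in both groups. The 8 astroglia markers summed to 7918, 2617 and 4458 CPM in DMSO replicates 1 to 3, and the 11 granule neuron markers to 3977, 6469 and 4413 CPM. Replicate 2 was thus the lowest of the controls in astroglia markers and the highest in granule neuron markers. These CPM, and all levels given from here on, are scaled by TMM library factors. In such bulk RNA, fewer cells of a type and less RNA per cell cannot be told apart.

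GSK-126 was compared with DMSO to ask whether channel transcripts depend on EZH2 activity after DIV3. Most genes of the set that were well expressed had lower levels with the inhibitor in every pair of same-numbered cultures, led by Kcnc1, Kcnq3, Kcna1, Kcnk3 and Kcnd2, while Kcnq5 was higher in every pair. Without the replicate number in the model, edgeR's quasi-likelihood test called 0 of the 64 genes, and 0 of all 16729 genes tested (0.00%), at an adjusted p under 0.05. The smallest adjusted p of a potassium channel gene was 0.953 in that edgeR test. An unadjusted p under 0.05 was reached by 2 higher genes, or 3.125% against 1.77% of all genes, and by 7 lower ones, or 10.9% against 2.21%. DESeq2 without the block also called 0 of the 64 genes, while it called 20 higher and 1 lower of all 16729. There the unadjusted p was under 0.05 for 2 genes on the higher and 10 on the lower side, against 295 and 380 of all genes.

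Same-numbered libraries were taken as pairs because their counts correlated, as the labels do not say that a number marks a shared culture. With the number as a block, edgeR called 2 of the 64 genes higher and 20 lower. These are 3.125% and 31.25% of the set, against 3.35% and 5.09% of all genes tested. DESeq2 with the block called 1 higher and 19 lower, against 372 and 627 of all 16729 genes. It gave no adjusted p for 30 of the 64 genes and for 5514 of all genes. In the text below, a gene is called where its adjusted p in edgeR with the block was under 0.05. All 20 genes called lower were lower in 3 of 3 pairs, and 17 of them were called in each of the fits that left out 1 pair. Kcnk9 was lost without pair 1, and Kcnip2 and Kcnmb4 were lost without pair 2. An opposite-strand exon overlap was present for 7 of the 20, among them Kcnab1, Kcnj3, Kcnj9, Kcnk1, Kcnk3 and Kcnmb4. Of the 35 genes with a mean above 10 CPM, 19 were called lower and 1 higher. The like share over all genes above 10 CPM was not counted, and the 3.35% and 5.09% given above include genes of few counts.

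The median log2 fold change of the 64 genes was -0.24 without the block, against -0.01 over all genes, and 47 of the 64 were below 0. Without DMSO replicate 2, that median was -0.11. The median log2 ratio of the set was -0.22, -0.38 and -0.37 in pairs 1 to 3. In 3 of 3 pairs, 34 of the 64 genes were lower, which is 53.1% against 22.8% of all genes, and 7 were higher, which is 10.9% against 19.6%. The plot of fold changes by family sets out tested genes one by one.

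**Figure D1:**
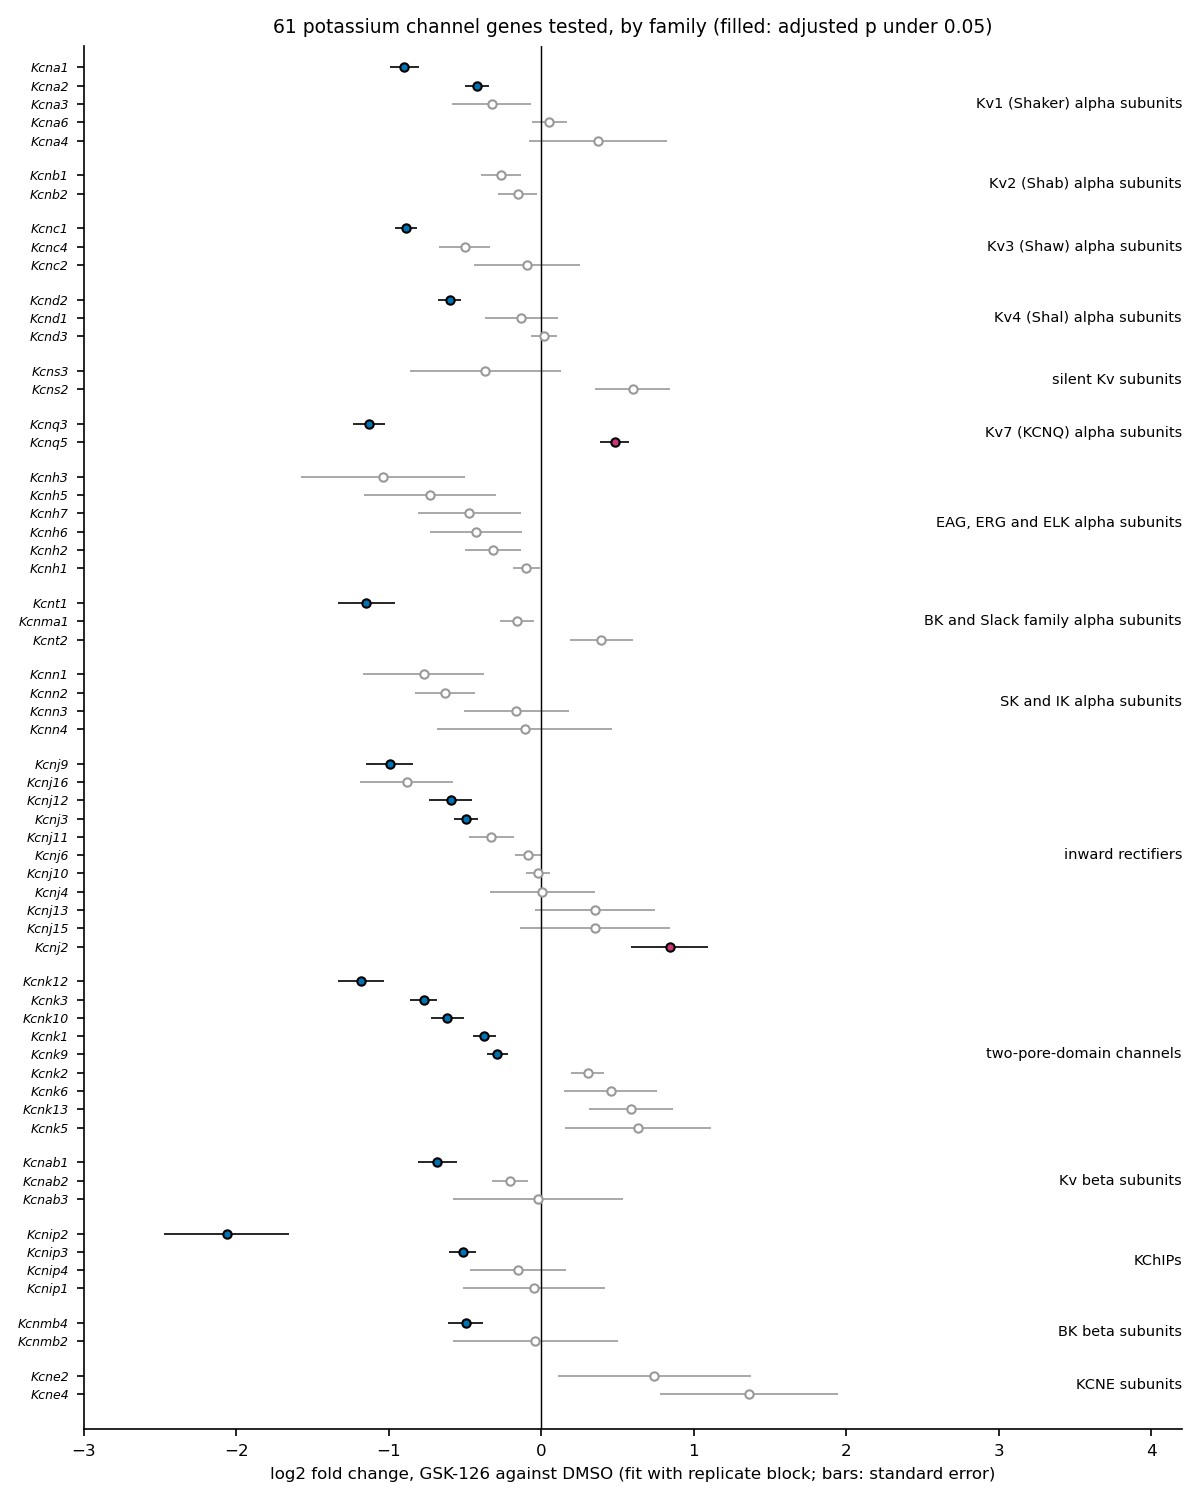
Log2 fold change of GSK-126 against DMSO (horizontal axis) for 61 of the potassium channel genes tested, grouped by family, from edgeR with the replicate number as a block. Points are estimates and bars standard errors, and filled points have an adjusted p under 0.05: 18 lie below 0 and 2, Kcnq5 and Kcnj2, above it.

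The summed level of all 92 genes was 2610.0, 4571 and 2965 CPM with DMSO and 2029, 3246 and 2256 CPM with GSK-126. By pair this is 77.7%, 71.0% and 76.1% of the DMSO level. The 5 highest genes took between 39.9% and 49.6% of it, and without them the share was 85.1%, 75.9% and 80.7%. The granule neuron markers summed to 78.5%, 77.7% and 75.4% of DMSO in the same pairs, with 7 of 11 called lower and 1 higher. The astroglia markers summed to 104%, 95.9% and 98.9%, with 1 of 8 called higher. Microglia markers summed to 122%, 151% and 117%, with 4 of 8 called higher, and vascular and mural markers to 154%, 131% and 125.7%, with 3 of 7 tested called higher. Markers of Purkinje cells and GABAergic interneurons summed to 84.4%, 82.1% and 66.1%, with 3 of 7 called lower. Markers of the oligodendrocyte lineage summed to 103%, 116% and 114%, with 1 of 7 called higher, and markers of progenitors and cycling cells to 119%, 94.3% and 109%, with 0 of 4 tested called. No marker of these lists was at 0 in all libraries. The part of these cell types in the channel results was not tested.

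**Figure D2:**
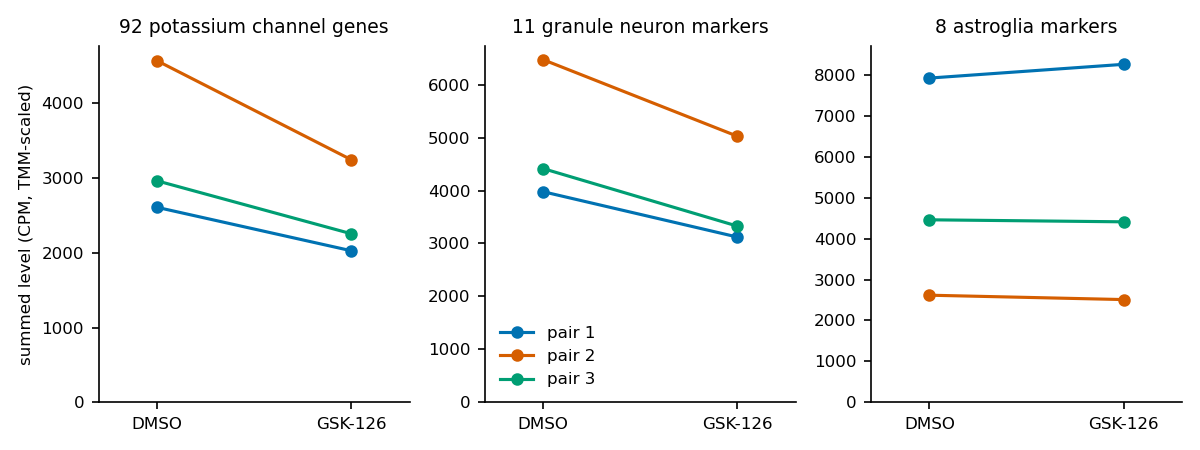
Summed level in TMM-scaled CPM of the potassium channel genes, the granule neuron markers and the astroglia markers in each library, with lines joining same-numbered cultures. Channel genes and granule neuron markers are lower with GSK-126 in 3 of 3 pairs and highest in replicate 2, and astroglia markers are lowest in replicate 2.

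On a scale that allows genes to be compared, CPM per kilobase of exon, the highest levels with DMSO belonged to Kcnk1, a two-pore leak channel of the TWIK type, at 64.7 ± 19.7 (SD, n = 3), and to Kcnc1, a fast Kv3 channel of neurons that fire at high rates, at 56.9 ± 23.6. Kcnd2, the A-type Kv4 channel, was at 42.0 ± 17.8 per kilobase. Kcnk9, a TASK-type leak channel, was at 41.1 ± 15.6 on that scale. Further down stood Kcnk12 at 31.0 ± 32.2 and Kcnj3, a G protein-coupled inward rectifier, at 26.9 ± 12.5. The place of Kcnk12 rests on DMSO replicate 2, and without that library, a choice made after seeing the data, its mean was 12.4 per kilobase. Kcnip3, Kcnj10 and Kcnk3 closed the highest 10 at 22.6 ± 3.80, 22.5 ± 6.27 and 21.8 ± 8.49 per kilobase. Neighbours among the genes given here differed by less than the larger of their spreads over libraries. That spread is in part shared, as DMSO replicate 2 was highest for most of these genes. It is therefore not the spread of a difference between genes within a library. At the other end of the described genes, Kcng2, a silent subunit named after its values were seen, was at 0.125 ± 0.110 per kilobase.

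**Figure D3:**
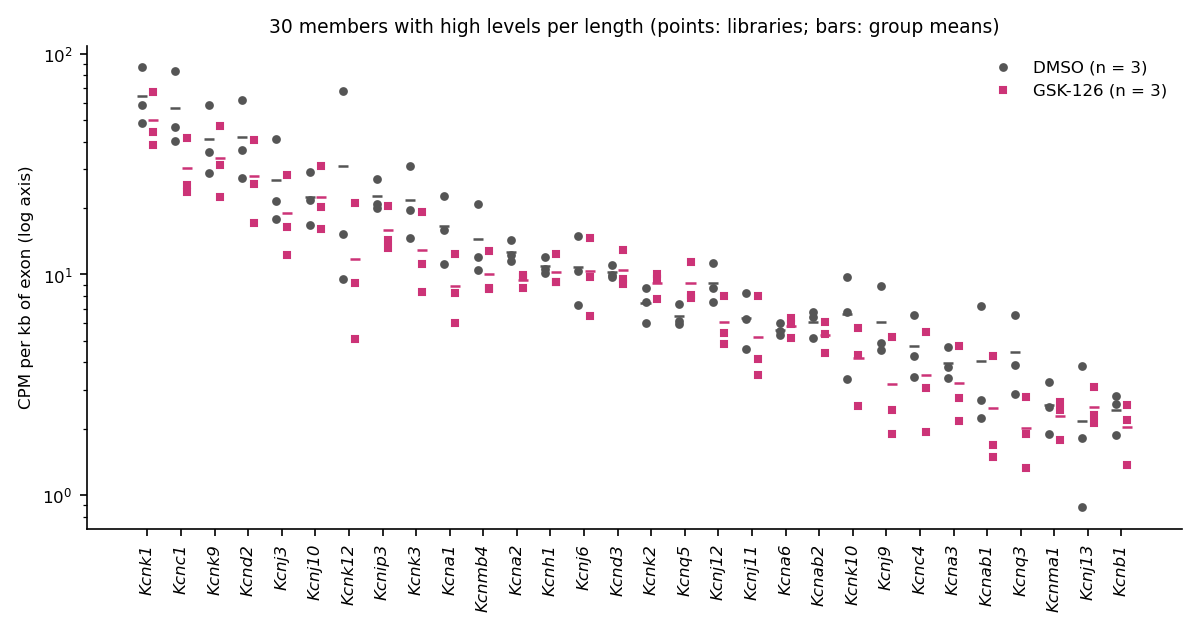
Level per kilobase of exon (TMM-scaled CPM, log axis) of 30 genes with high levels, with points for the 3 libraries of each group and bars for group means. Kcnk1 and Kcnc1 lead with DMSO at 64.7 and 56.9. The spread over libraries exceeds the gap between most neighbours, but it is in part shared between genes.

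Of the 26 voltage-gated pores tested, 7 were called lower and 1 higher, with a median log2 fold change of -0.31 without the block. Kcnc1 (chromosome 7, 46396497 to 46438704, plus strand, GRCm38) encodes a Kv3 channel whose fast opening and closing permits high firing rates. Its level was 382, 793 and 439 CPM with DMSO and 223, 395 and 241 CPM with GSK-126. The level was lower in each pair, although GSK-126 replicate 2 lay above DMSO replicate 1, so that the groups overlapped. Its log2 fold change in edgeR with the block was -0.88 ± 0.07 (SE), with an adjusted p of 1.53e-07, and without the block it was -0.91 ± 0.33. Kcnc4 and Kcnc2, also Kv3 genes and named after their values were seen, were not called, at log2 -0.50 ± 0.17 and -0.09 ± 0.35 with the block.

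Kcnd2 encodes the Kv4 channel of the transient A-type current. Its levels were 142, 319 and 189 CPM with DMSO and 87.7, 210.0 and 133 CPM with GSK-126. GSK-126 replicate 2 exceeded DMSO replicates 1 and 3, and within each pair the level was lower, at a log2 fold change of -0.60 ± 0.08 and an adjusted p of 2.71e-05 in edgeR with the block. Kcnd3, its close relative, was at 93.0, 106 and 95.4 CPM with DMSO and 86.4, 123 and 91.4 CPM with GSK-126. Pair 2 was higher and pairs 1 and 3 slightly lower, so the groups overlapped and the log2 fold change was 0.02 ± 0.09 with the block and not called. With DMSO, Kcnd3 stood at 0.244 of the level of Kcnd2 per kilobase, and with GSK-126 at 0.376.

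The Kv7 genes were called in both directions. Kcnq3 encodes a subunit of the M-current channel, a brake on repetitive firing. It had 42.1, 96.5 and 57.2 CPM with DMSO and 19.6, 41.1 and 27.8 CPM with GSK-126, and every GSK-126 library lay below every DMSO library. Its log2 fold change with the block was -1.13 ± 0.10, adjusted p 7.2e-07 in edgeR. Kcnq5, a further M-type subunit, had 45.7, 56.3 and 47.4 CPM with DMSO and 60.1, 87.7 and 62.4 CPM with GSK-126. All GSK-126 libraries of Kcnq5 lay above all DMSO libraries, with a log2 fold change of 0.48 ± 0.10 and an adjusted p of 0.0028 in edgeR with the block. Kcnq5 shares 237 bases of exon with Gm26580 on the other strand. Per kilobase, Kcnq5 was at 1.46 times the level of Kcnq3 with DMSO and at 4.54 times with GSK-126.

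Kcna1, a Kv1 channel of axons, had 53.1, 108 and 76.1 CPM with DMSO and 29.0, 59.1 and 39.4 CPM with GSK-126. Each pair fell by a similar amount, with log2 ratios of -0.87, -0.87 and -0.95, and GSK-126 replicate 2 lay above DMSO replicate 1. The log2 fold change was -0.90 ± 0.09 with an adjusted p of 3.26e-06 in edgeR with the block. Kcna2, its common partner and named after its values were seen, was called lower at log2 -0.42 ± 0.08 (adjusted p 0.0017, edgeR with the block), and its groups did not overlap. It was the only gene called lower that was not also called between replicate numbers. Kcna6, also named afterwards, was at log2 0.05 ± 0.11 and not called. The 6 EAG, ERG and ELK genes, the 2 Kv2 genes and the 2 silent subunits tested gave no call. Among them Kcnh1, named after its values were seen, was the highest per kilobase, with 74.8 to 87.9 CPM with DMSO and 67.5 to 90.7 CPM with GSK-126.

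**Figure D4:**
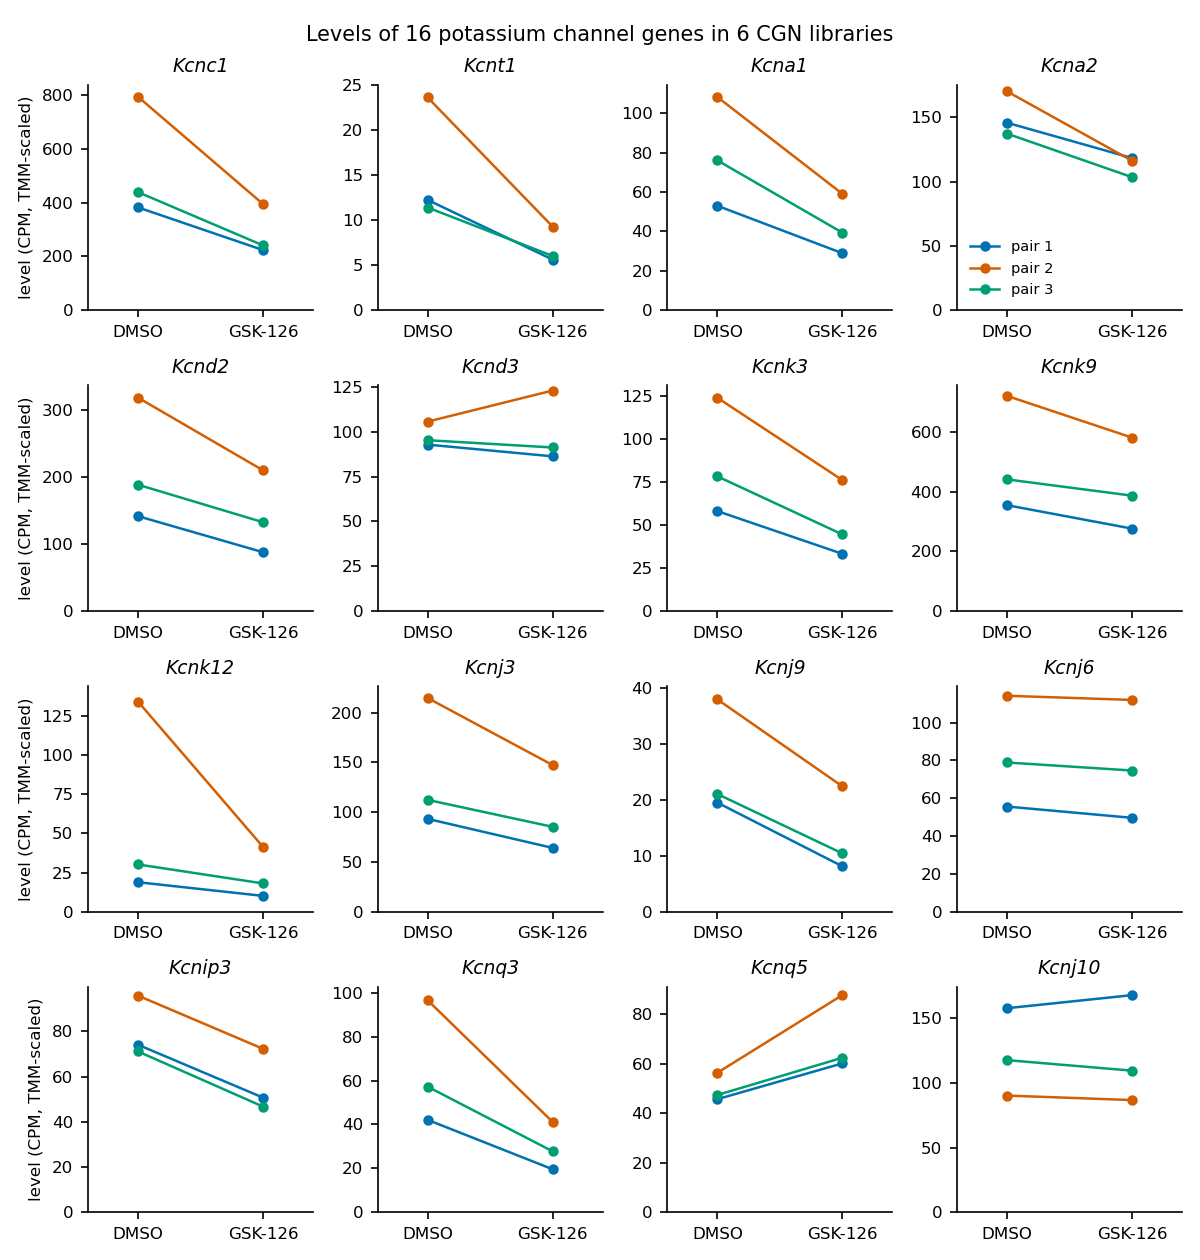
Levels in TMM-scaled CPM of 16 genes in each library, with DMSO at the left, GSK-126 at the right and lines joining same-numbered cultures. Lines slope down for most neuronal channel genes, as for Kcnc1 and Kcnq3, up for Kcnq5, and lie nearly level for Kcnd3, Kcnj6 and Kcnj10, and replicate 2 is highest in most panels but lowest for Kcnj10.

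Of the 7 calcium- or sodium-activated pores, 1 was called. Kcnt1, the sodium-activated Slack channel, had 12.2, 23.6 and 11.4 CPM with DMSO and 5.61, 9.26 and 6.01 CPM with GSK-126. The groups did not overlap, and the log2 fold change was -1.15 ± 0.19 with an adjusted p of 0.000421 in edgeR with the block. Its relative Kcnt2, named after its values were seen, was at log2 0.39 ± 0.21 and not called. Kcnma1, the BK pore opened by calcium and depolarisation, had 32.2, 55.6 and 42.7 CPM with DMSO and 30.1, 44.7 and 41.1 CPM with GSK-126. Its groups overlapped and it was not called, at log2 -0.16 ± 0.11. Kcnn4, the intermediate-conductance channel known from blood and glial cells, stayed at 1.48 CPM or less and was not called, and the other SK genes gave no call.

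Of the 11 inward rectifiers tested, 3 were called lower and 1 higher. Kcnj3, Kcnj6 and Kcnj9 encode the GIRK channels that G protein-coupled receptors open. Kcnj3 had 93.2, 215 and 112 CPM with DMSO and 64.05, 147 and 85.2 CPM with GSK-126. GSK-126 replicate 2 lay above DMSO replicates 1 and 3, and each pair was lower, with a log2 fold change of -0.50 ± 0.08 and an adjusted p of 0.000352 in edgeR with the block. Kcnj3 shares 1621 bases of exon with Gm26794 on the other strand. Kcnj9 had 19.5, 37.9 and 21.0 CPM with DMSO and 8.11, 22.4 and 10.4 CPM with GSK-126. Its groups overlapped through replicate 2, and its log2 fold change was -0.99 ± 0.15, adjusted p 0.000223 in edgeR with the block. Kcnj6 had 55.6, 114 and 78.9 CPM with DMSO and 49.6, 112 and 74.7 CPM with GSK-126, which was nearly level in each pair. It was not called, at log2 -0.09 ± 0.09 with the block. Per kilobase, Kcnj6 was at 1.78 times the level of Kcnj9 with DMSO and at 3.24 times with GSK-126.

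Kcnj2, a constitutively active Kir2 channel, had 6.46, 4.48 and 4.35 CPM with DMSO and 7.35, 8.51 and 11.8 CPM with GSK-126. All GSK-126 libraries lay above all DMSO libraries, and the log2 fold change was 0.84 ± 0.25 with an adjusted p of 0.042 in edgeR with the block. The call was lost without pair 2 and without pair 3, and DESeq2 with the block gave Kcnj2 no adjusted p. Kcnj12, another Kir2 gene and named after its values were seen, was called lower at log2 -0.59 ± 0.14 (adjusted p 0.0095, edgeR with the block). Kcnj10, the main inward rectifier of astroglia, had 158, 90.2 and 118 CPM with DMSO and 168, 86.7 and 109 CPM with GSK-126. Replicate 2 was lowest in both groups, as for the astroglia markers, and Kcnj10 was not called, at log2 -0.02 ± 0.08 with the block. Kcnj16, its glial partner, was at 8.19, 6.25 and 3.39 CPM with DMSO and 6.82, 2.69 and 1.07 CPM with GSK-126 and was not called (log2 -0.88 ± 0.31). Kcnj8, known from mural cells, was at 1.15 CPM or less in every library and was not tested.

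Of the 9 two-pore-domain genes, 5 were called lower and none higher. Kcnk3 and Kcnk9 encode the TASK-type leak channels of granule neurons. Kcnk3 had 58.0, 124 and 78.2 CPM with DMSO and 33.2, 76.0 and 44.5 CPM with GSK-126. GSK-126 replicate 2 lay above DMSO replicate 1, and the pairs fell by 0.81, 0.70 and 0.81 on the log2 scale, for a fold change of -0.77 ± 0.09 with an adjusted p of 1.22e-05 in edgeR with the block. Kcnk9, the gene with the highest count total of the set, had 355, 722 and 441 CPM with DMSO and 276, 582 and 387 CPM with GSK-126. Its groups overlapped and its pairs were lower by less, with a log2 fold change of -0.29 ± 0.07 and an adjusted p of 0.0116 in edgeR with the block. Without DMSO replicate 2 and with no block, Kcnk9 stood at log2 0.062. Kcnk9 was at 1.89 times the level of Kcnk3 per kilobase with DMSO and at 2.62 times with GSK-126. Kcnk1 had 109, 194 and 131 CPM with DMSO and 86.2, 149.8 and 98.6 CPM with GSK-126. It overlapped between groups and was called lower at log2 -0.37 ± 0.08 (adjusted p 0.0034, edgeR with the block).

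Kcnk12 (chromosome 17, 87745801 to 87797994, minus strand) encodes a THIK-type two-pore subunit. It had 18.8, 134 and 30.2 CPM with DMSO and 10.1, 41.4 and 18.0 CPM with GSK-126. DMSO replicate 2 was far above the other libraries, and the pairs stood at log2 -0.90, -1.70 and -0.74. The log2 fold change was -1.18 ± 0.15 with an adjusted p of 3.64e-05 in edgeR with the block, and it was called without any one pair. Kcnk10, a mechanosensitive TREK-type channel, had 29.5, 85.4 and 59.1 CPM with DMSO and 22.4, 50.2 and 37.8 CPM with GSK-126. Its groups overlapped, with log2 -0.62 ± 0.11 and an adjusted p of 0.000868 in edgeR with the block. Kcnk2, the other TREK-type gene here and named after its values were seen, was at log2 0.30 ± 0.11 and not called. Kcnk13, the THIK-type channel of microglia, had 4.27, 2.14 and 4.87 CPM with DMSO and 5.99, 3.98 and 6.68 CPM with GSK-126 and was not called, at log2 0.59 ± 0.28.

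Of the 11 auxiliary genes tested, 4 were called lower. Kcnip3, a calcium-binding KChIP that joins Kv4 channels and is also known as a DNA-binding repressor, had 74.1, 95.7 and 71.1 CPM with DMSO and 50.7, 72.3 and 46.7 CPM with GSK-126. GSK-126 replicate 2 lay just above DMSO replicate 3, and the log2 fold change was -0.52 ± 0.09 with an adjusted p of 0.000893 in edgeR with the block. Kcnip4, another KChIP, was at 5.69 CPM or less and was not called. Kcnab1, a Kv beta subunit, Kcnmb4, the neuronal BK beta subunit, and Kcnip2 were called lower and are named after their values were seen, with log2 fold changes of -0.68 ± 0.13, -0.50 ± 0.11 and -2.06 ± 0.41 with the block. Kcnip2 rests on few counts, between 3 and 113 per library. Among 22 partners of potassium channels whose symbols fall outside the pattern, 20 were tested, and 8 were called lower and 0 higher. Over all genes tested, 5.09% were called lower and 3.35% higher, at any level of expression. The 8 were Dpp6 and Dpp10, the Kv4 partners, Cntnap2, Adam22 and Lgi1, which sit with Kv1 channels on axons, Ank3, Nedd4l and Abcc8. These partners summed to 80.6%, 77.2% and 82.6% of DMSO by pair.

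Related genes were set side by side in 10 pairs of genes, chosen after their values were seen and given with no test. The gene with the higher mean log2 ratio was put first, so the sign of the mean difference was set by that order. The difference between the log2 ratios was positive in 3 of 3 pairs for each. Kcnq5 minus Kcnq3 was 1.495, 1.87 and 1.44 in pairs 1 to 3. Kcnd3 minus Kcnd2 was 0.58, 0.82 and 0.45. Kcnk2 minus Kcnk10 was 0.76, 0.98 and 0.99.

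**Figure D5:**
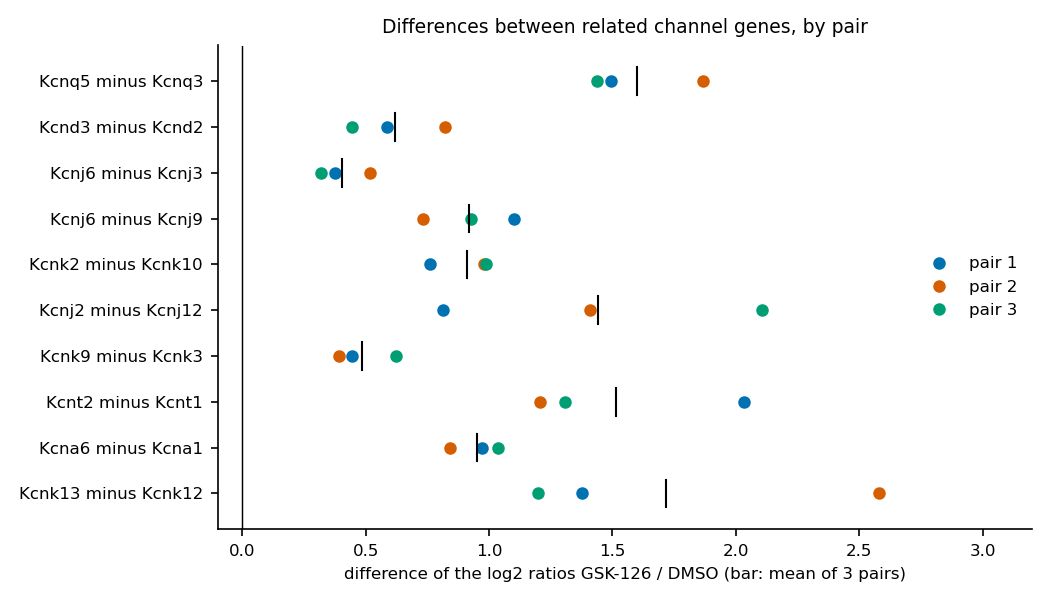
Difference between the log2 ratios (GSK-126 over DMSO) of 2 related genes in each pair of cultures, for 10 gene pairs chosen after their values were seen. Points are pairs of cultures and bars are means, and the gene with the higher mean log2 ratio is put first. In that order all points lie above 0, and the smallest value is 0.32 for Kcnj6 minus Kcnj3.

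Levels also differed between the cultures of a group. Between replicate numbers, 36 of the 64 genes were called by edgeR, or 56.25%, against 31.4% of all genes. Replicate 2 was the highest in both groups for 33 of the 64, or 51.6% against 26.6% of all genes, and the lowest for 9, or 14.1% against 24.2%. Of the 20 genes called lower with GSK-126, 19 were also called between replicate numbers. The like share over all genes called lower was not counted. The DMSO and GSK-126 libraries did not overlap for 3 genes in each direction, Kcnq5, Kcnj2 and, named after its values were seen, Kcnk5 above and Kcna2, Kcnq3 and Kcnt1 below, which is 4.69% each way against 4.72% of all genes higher and 4.72% lower.

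The study also lists genes whose promoters lose H3K27me3 as the cerebellum matures in vivo, on other samples. Of the potassium channel genes, 22 are on these lists, Kcna1 on both the fast and the slow one, and 19 of the 22 were tested here. With the block, 10 of the 19 were called lower and 0 higher, or 52.6%, against 20.0% of the 1042 tested genes of these lists. Of the other 45 tested potassium channel genes, 10 were called lower and 2 higher. The median log2 fold change without the block was -0.51 for the 19 genes, -0.14 for the other 45 and -0.09 for the 1042 listed genes. For promoters that lose the mark in culture, the study reports that GSK-126 given at DIV1 left H3K27me3 nearly unchanged. It also reports reduced expression of those genes with GSK-126 added at DIV3. The list of promoters that gain H3K27me3 in vivo held 0 potassium channel genes. The list of those that gain it in culture from DIV1 to DIV7 held 5. The 3 tested, named for this list as Kcnh5, Kcnh7 and Kcnip4, were not called in either direction. Their median log2 fold change of -0.64 without the block is the value of Kcnh5, lower in 3 of 3 pairs at 3.46 CPM or less. Kcnh7 was higher in pairs 1 and 3, at log2 0.19 and 0.07, and lower in pair 2, at -1.29. Kcnc1 and Kcnk12, 2 of the 10 listed genes called lower, are both on the slow list. For these 2 genes, the 250 bases before the RefSeq start (GRCm38.p6) are shown, because Polycomb complexes are known to occupy CpG-rich sequence, with each CG pair in capitals, at chr7:46396218-46396467 on the plus strand and chr17:87797995-87798244 on the minus strand.
Kcnc1: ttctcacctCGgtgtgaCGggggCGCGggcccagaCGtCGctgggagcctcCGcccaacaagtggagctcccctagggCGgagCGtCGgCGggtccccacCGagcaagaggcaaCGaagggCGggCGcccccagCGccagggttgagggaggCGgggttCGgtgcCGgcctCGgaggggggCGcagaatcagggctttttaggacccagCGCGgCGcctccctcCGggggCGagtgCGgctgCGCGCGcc
Kcnk12: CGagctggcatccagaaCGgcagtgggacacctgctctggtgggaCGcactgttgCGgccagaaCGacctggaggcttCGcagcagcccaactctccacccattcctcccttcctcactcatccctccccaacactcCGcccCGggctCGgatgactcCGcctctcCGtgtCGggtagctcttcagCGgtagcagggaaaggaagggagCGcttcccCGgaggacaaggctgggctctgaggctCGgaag
Kcnc1 holds 30 CG pairs in this window and Kcnk12 holds 16, against a median of 6 over all 32851 promoter windows of that length. The median was 8 over the 72 windows of the 48 described genes with an entry and 6.5 over the 18 windows of genes called lower. Of other listed genes called lower, Kcna2 held 18 CG pairs, Kcnj9 5, Kcnj12 4, and Kcnip3 4, 2 and 23 in its 3 windows. Polycomb binding at these windows was not tested. CAGCAGG, the ZIC-type motif, was found on either strand in 16.7% of the windows of described genes and in 8.44% of all windows. CAGATG, the NEUROD1 E-box, was found on either strand in 15.3% and 14.4%. The ZIC-type motif was in 3 of the 18 windows of genes called lower and in 8 of the 50 of tested genes not called. For the NEUROD1 E-box these counts were 1 and 9. Windows of described genes had a median GC share of 58.8%, against 52.4% for all windows.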

How the data were processed

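The 6 libraries were poly(A) RNA of CGN cultures. Per the labels and the study's methods, the authors trimmed reads with Trimmomatic 0.38, aligned them with STAR 2.7.2b to mm10 (GRCm38) and counted them on exons with HTSeq. The authors deposited raw counts per gene, one table per library, with no normalization. Lines that name no gene held 58.7% to 60.7% of the listed reads and stayed out of library sizes and tests. Symbols were matched to GENCODE M21 for coordinates, exon lengths and overlaps, and 55341 of 55341 matched. No pair of libraries agreed within sampling noise, the smallest chi-square per degree of freedom being 8.98.

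Counts of all genes kept by filterByExpr were fitted with edgeR 4.0.16 in R 4.3.3 (TMM factors, quasi-likelihood test, Benjamini-Hochberg adjustment over all 16729 genes, threshold 0.05), with no block as the main design. Deviations from group means correlated at 0.589, 0.697 and 0.512 between same-numbered libraries and at 0.0836 or less otherwise, so the numbers, given in the labels, were taken to mark shared cultures, and blocked values are given where it changes a call. The biological coefficient of variation was 24.0% without the block and 9.74% with it. Log2 ratios of single pairs come from scaled CPM. Alternatives were DESeq2 1.42.0, other scalings and filters, and leaving out libraries or pairs. P-values without the block measure against the spread between these culture preparations. Those with the block, which gave all the calls, measure against the smaller spread left once differences between replicate numbers are taken out. Scripts were tested on simulated data.

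The genes and gene lists were chosen with earlier results of these data known. Named were described genes that were (a) among the 12 with the smallest p in each direction with the block at an adjusted p under 0.05, (b) among the 10 highest per length, or (c) in lists of granule neuron channels and (d) of glial and mural channels. Others are named as members of a count or list, or are said to be named after their values were seen. H3K27me3 lists were used for membership only, and one culture list was not used here. Some genes of the set that entered the fits and counts are not reported here by name.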

Additional observations from a re-analysis of the deposited data

How the results depend on the processing

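Counts of calls depended on the replicate block. With the replicate block edgeR called 2 genes higher and 20 lower, DESeq2 with the replicate block 1 and 19, and the block without pair 1, pair 2 or pair 3 called 2 and 21, 1 and 18, and 2 and 21. The fit with no block called 0 and 0, as did each other scaling, filter or left-out library without a block. Over all genes, the block gave 561 and 851 in edgeR and 372 and 627 in DESeq2. Over all genes, edgeR with the block gave 417 and 671 without pair 1, 337 and 496 without pair 2, and 558 and 719 without pair 3. The median log2 fold change of the set was -0.24 and ranged from -0.35 to -0.11 when 1 library was left out, with -0.33 for the block without pair 3. Upper-quartile factors moved the median of all genes from -0.0071 to 0.027 and that of the set to -0.20. The count of genes that differ between replicate numbers stayed between 28 and 36. Leaving out 1 library changed the sign of named genes with no call without the block. Their log2 fold changes then ranged from -0.59 to 0.062 for Kcnk9, -0.30 to 0.24 for Kcnj10, -0.31 to 0.14 for Kcnip4, -0.40 to 0.23 for Kcnj6, -0.33 to 0.045 for Kcnma1, -0.12 to 0.14 for Kcnd3 and -0.33 to 0.18 for Kcnn4. Kcnj10 also turned to 0.028 with upper-quartile factors, 0.022 with total counts, 0.011 with no filter, 0.013 with the filter of 10 counts in 3 libraries and 0.021 in the block without pair 3, where Kcnn4 stood at 0.45. In the block without pair 2, Kcnd3 turned to -0.082 and Kcnip4 to 0.12. The causes were not tested. Depth limits genes of few counts, and 13 of the 66 genes described were below 10 in at least 1 library.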
